A study of Mus musculus with 8 samples.

Results

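The genes described here encode the proteins of the cytosolic ribosome, measured in single fibro/adipogenic progenitors (FAPs), stromal cells that lie between the muscle fibres and carry PDGFRα. A gene was a member where its symbol began with Rpl or Rps followed by a digit, or was Rplp0, Rplp1, Rplp2 or Rpsa. Symbols with -ps, which name pseudogenes, and the Rps6k kinases were left out. The rule found 86 of the 31053 genes in the deposited matrices. Of these, 77 are canonical ribosomal protein genes. The other 9 are paralogs (Rpl3l, Rpl7l1, Rpl10l, Rpl22l1, Rpl36al, Rpl39l, Rps27l and Rps27rt) and Rps19bp1. The last encodes a protein that binds RPS19 and is not itself a ribosomal subunit. The canonical protein FAU carries another symbol, so its gene was read as a non-member.

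FAPs came from the hindlimb muscles of female mice, 8 months old, that were either wild type (C57BL/6) or dysferlin knockout. Dysferlin helps to reseal torn muscle fibre membranes, and without it there is a slowly progressing muscular dystrophy in which FAPs accumulate and deposit matrix and fat. The labels and the protocol spell the strain of the knockout animals differently, so the animals are called the dysferlin knockout here. The series was designed to compare the transcriptomes of FAPs from healthy and diseased muscle. The labels list 4 samples per group, but the deposited files hold 1 pooled matrix per group with no map from cells to samples. Each group is therefore 1 library, no difference below has a replicate check, no p-value is given, and the library and the genotype cannot be told apart. Whether the knockout strain shares the C57BL/6 background is not stated in the labels, so strain and dysferlin loss cannot be told apart either. Intervals are 95% intervals that cover counting error only.

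Cells were kept with at least 500 genes, at most 10% of unique molecular identifiers (UMIs, each counting 1 captured RNA molecule) from mitochondrial genes, and at least 1 Pdgfra UMI. This left 1533 wild type cells with 14420247 UMIs and 1435 knockout cells with 19170199 UMIs. The knockout cells were deeper, with a median of 12717 UMIs per cell against 9177. All 10 FAP markers were seen in the median cell of each library. Summed levels of 8 endothelial markers were 102 and 69.3 counts per 1000000 UMIs (CPM) in wild type and knockout, those of 9 immune markers 2.57 and 68.0 CPM, those of 12 muscle fibre markers 44.2 and 42.7 CPM, and those of 5 tendon cell markers 598 and 976 CPM. Dysf itself gave 9 and 14 UMIs, too few to check the labels. The 2 libraries shared 2 barcodes among the kept cells.

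A ribosome joins a small subunit, which reads the mRNA, to a large subunit, which forms the peptide bond, and each canonical protein is needed in about equal number in either subunit. Most of their mRNAs begin with a C followed by a run of pyrimidines, the 5′ terminal oligopyrimidine (TOP) tract. Through this tract the growth-regulating kinase mTORC1, acting partly through the RNA-binding protein LARP1, sets their translation and stability together. The same tract is found on mRNAs of elongation factors and a few other translation proteins. Ribosomal protein genes have also left many processed copies across the mammalian genome, some nearly identical to the parent, which matters for short 3′ reads.

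To show what the tract looks like in these genes, windows of 30 bases around the RefSeq transcription start (15 before, 15 after, GRCm38.p6) were read for the 66 members found in the RefSeq promoter table. In 25 of them (37.9%) the window held a run of at least 8 pyrimidines (C or T) on the coding strand, against 3205 of 27025 genes in the table (11.9%). The median longest run was 6 bases among the members and 4 among all genes. The following windows are the 7 members with the longest runs. Rps27 was added because its values are described below, though its run of 9 is shorter than those of some members not shown. The windows were not chosen by the ratio of knockout over wild type. Of the printed members, Rpl35, Rpl13a and Rps27 are among those with the lowest ratios. Rpl10, Rps4x and Rpl35a are among the lowest too, and their windows had longest runs of 3, 4 and 4 bases. Whether run length goes with the ratio was not tested. The printed windows read 5′ to 3′ on the coding strand, with the longest run of pyrimidines in capitals.
Rpl7a (chr2:26910792-26910821, plus strand): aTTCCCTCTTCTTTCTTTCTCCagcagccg
Rpl27a (chr7:109519180-109519209, plus strand): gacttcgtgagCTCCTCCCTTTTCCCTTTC
Rpl35 (chr2:39005117-39005146, minus strand): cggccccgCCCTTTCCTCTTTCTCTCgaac
Rpl15 (chr14:18270972-18271001, minus strand): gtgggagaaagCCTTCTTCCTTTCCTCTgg
Rpl14 (chr9:120571502-120571531, plus strand): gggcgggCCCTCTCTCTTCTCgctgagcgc
Rpl13a (chr7:45128731-45128760, minus strand): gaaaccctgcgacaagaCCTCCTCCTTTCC
Rps10 (chr17:27635230-27635259, minus strand): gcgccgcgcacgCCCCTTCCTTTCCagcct
Rps27 (chr3:90213634-90213663, minus strand): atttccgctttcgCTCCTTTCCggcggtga
A match to this pattern is a description of the letters and not evidence of a start site used in FAPs.

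Ribosomal protein mRNA was among the most abundant RNA of these cells. Members took 23 of the 50 highest gene levels and 48 of the 100 highest. Their summed UMIs were 2277787 in wild type and 2489388 in the knockout, which is 15.8% and 13.0% of all UMIs. The knockout share was 1.22-fold lower (log2 ratio −0.28). The 95% counting interval ran from −0.285 to −0.280, so the difference was far larger than counting error, while its size against the spread between animals could not be measured.

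The lower share was a shift of the whole distribution of cells. In wild type the lowest cell held 1.17% member UMIs, the median 15.3% and the highest 32.0%. In the knockout the lowest held 0.808%, the median 12.5% and the highest 31.0%. The quartiles were 12.4% and 18.6% in wild type and 9.75% and 14.8% in the knockout, so the 2 libraries overlapped widely. Cells above 20% numbered 262 (17.1%) in wild type and 71 (4.95%) in the knockout, and cells under 5% numbered 41 (2.67%) and 83 (5.78%). The SD between cells was 4.82 percentage points in wild type and 4.40 in the knockout, where counting alone would give 0.448 and 0.358, so cells of 1 library differed in this share by much more than their depth allows.

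**Figure D1:**
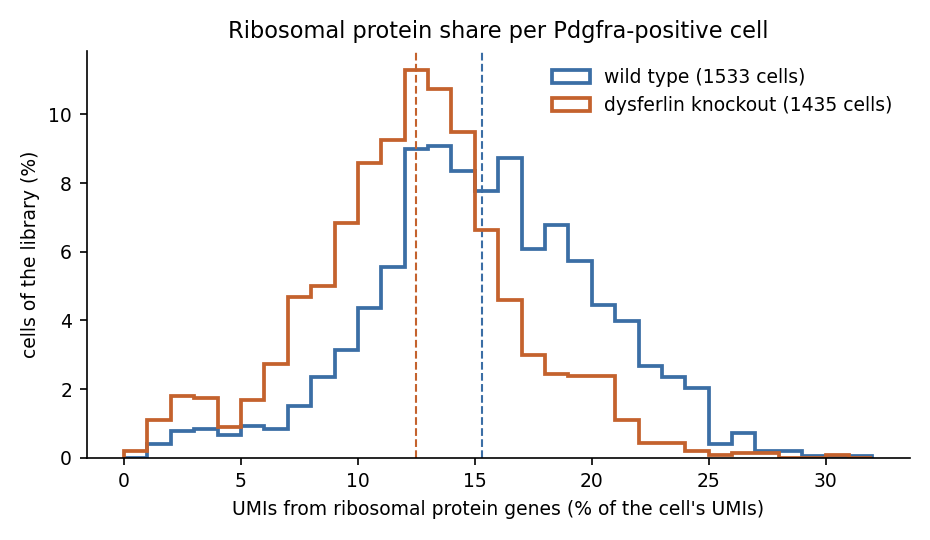
Histogram of the percent of each cell's UMIs that came from ribosomal protein genes (x axis), as a percent of the cells of the library (y axis), for 1533 wild type and 1435 knockout cells. Dashed lines mark the medians, 15.3% and 12.5%, and the knockout distribution lies to the left of the wild type one with wide overlap.

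Depth differed between the libraries, so the share was also read at matched depth. Among cells under 5000 UMIs the median share was 13.7% in 299 wild type cells and 10.7% in 172 knockout cells. From 5000 to 10000 UMIs it was 15.0% in 611 cells and 11.5% in 340. From 10000 to 15000 UMIs it was 16.1% in 473 cells and 13.2% in 388, and from 15000 to 20000 UMIs 16.4% in 89 cells and 12.7% in 291. At 20000 UMIs or more it was 15.3% in 61 cells and 13.1% in 244. The knockout share was lower in each of the 5 bins, with log2 ratios of −0.43 to −0.32 below 20000 UMIs and −0.13 above. Thinned to 5000 UMIs per cell, with 299 and 172 shallower cells left out, the medians were 15.7% and 12.7%. The 264 wild type and 149 knockout cells that passed the quality filters with no Pdgfra UMI had medians of 15.2% and 11.5%, at a median depth of 3200 and 3460 UMIs.

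Gene by gene, the lower level was spread over nearly the whole family. Of the 86 members, 83 passed a minimum mean of 20 CPM over both libraries. Their median log2 ratio (knockout over wild type) was −0.28, with quartiles of −0.35 and −0.20. Below 0 were 77 members and above 0 were 6, while the median of all 5933 genes past the same minimum was 0.05. A gene was counted as lower where its knockout level was at least 20% below the wild type level, and as higher where it was at least 25% above, the same fold in either direction. Lower were 29 members (34.9%), against 9.37% of all genes tested, and higher was 1 member, against 15.2% of all genes. At 1.5-fold, 4 members were lower (all genes 3.59%) and 1 was higher (all genes 5.07%). At 2-fold, 2 were lower (all genes 1.01%) and 1 was higher (all genes 1.77%). The 198 other genes with a mean of at least 500 CPM had a median of −0.03, with 23.7% at least 20% lower and 23.2% at least 25% higher.

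The 2 subunits were lower by the same amount. The 46 canonical large subunit members had a median log2 ratio of −0.28, with 17 (37.0%) at least 20% lower. The 31 small subunit members also had a median of −0.28, with 12 (38.7%) at least 20% lower, against 9.37% of all genes. Of these 77 canonical genes, 75 were below 0. Rpl31 was above 0, at 573 CPM in wild type and 596 in the knockout (0.06, 0.02 to 0.10), but was at −0.01 in cells thinned to 5000 UMIs and at −0.02 in cells of 5000 to 20000 UMIs. The 6 paralogs and other members that passed the minimum had a median of 0.16, with 4 above 0.

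**Figure D2:**
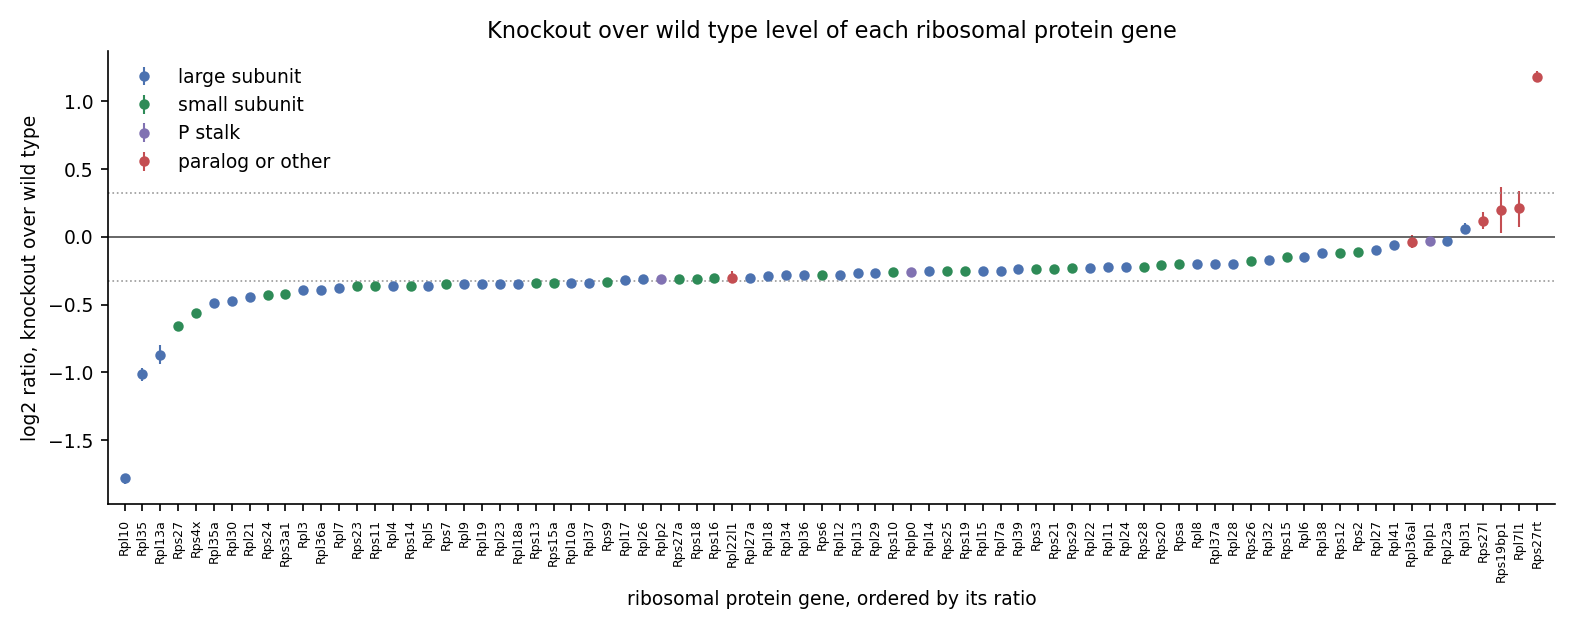
Log2 ratio of knockout over wild type CPM (y axis) for 80 of the 83 members with a mean of at least 20 CPM (x axis, ordered by ratio), coloured by subunit, with 95% counting intervals as bars and dotted lines at 20% lower and 25% higher. Most members form a band between about −0.35 and −0.20, Rpl10, Rpl35 and Rpl13a lie far below it, and Rps27rt lies far above it.

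Levels of the most abundant members are given next, as CPM of 3′ UMIs that were not divided by transcript length. Rplp1, an acidic protein of the stalk that recruits elongation factors, was the highest at 4432 CPM in wild type and 4327 in the knockout. Its log2 ratio of −0.03 (−0.05 to −0.02) was one of the smallest in the family. The stalk base Rplp0 was at 2558 and 2132 CPM (−0.26) and Rplp2, the partner of Rplp1, at 1504 and 1214 CPM (−0.31, but 0.14 when summed with a near-identical copy described below), so the 3 stalk genes did not share 1 ratio. Rpl13 was at 3940 and 3268 CPM (−0.27), and Rpl41, which encodes the smallest ribosomal protein, at 3429 and 3281 CPM (−0.06). Rpl37a was at 3070 and 2672 CPM (−0.20) and Rpl23 at 3063 and 2397 CPM (−0.35). Small subunit genes were also among the 10 highest members. Rps12 was at 3137 and 2895 CPM (−0.12), Rps20 at 3059 and 2649 CPM (−0.21) and Rps21 at 2992 and 2529 CPM (−0.24). Rps24, one of the genes mutated in Diamond-Blackfan anaemia, differed more, at 3387 and 2521 CPM (−0.43, −0.44 to −0.41). Each was lower in the knockout as counted, apart from the turn of Rplp2 with its copy, and of the genes named in this group Rps24 and Rpl23 were at least 20% lower.

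Some members are known for roles beyond the ribosome or for disease, and 5 of them, chosen after their values were seen, are given here. Rpl5 and Rpl11, whose free proteins bind the p53 inhibitor MDM2 when ribosome assembly stalls, were at 1183 and 919 CPM (−0.36) and at 1637 and 1401 CPM (−0.22). Rps6, the substrate of the S6 kinases downstream of mTORC1, was at 1220 and 1004 CPM (−0.28). Rpsa, which is also known as a laminin receptor, was at 2203 and 1921 CPM (−0.20). Rps19, another Diamond-Blackfan gene, was at 2159 and 1813 CPM (−0.25).

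The members with the lowest ratios came from both subunits. Rpl10, at chrX:74270812-74273135, encodes a protein near the peptidyl transferase centre that joins the large subunit late in its assembly, and was at 1995 CPM in wild type and 579 in the knockout (log2 ratio −1.78, −1.82 to −1.75). Rpl35, at chr2:39001580-39005624, lies at the exit of the nascent peptide tunnel and was at 674 and 334 CPM (−1.01, −1.06 to −0.97). Rpl13a, at chr7:45125558-45128761, is known for a second role in silencing inflammatory mRNAs after interferon-γ and was at 305 and 167 CPM (−0.87, −0.94 to −0.80). Rps27, at chr3:90212522-90213651, a zinc finger protein of the small subunit, was at 2236 and 1416 CPM (−0.66, −0.68 to −0.64). These 4 are the members at least 1.5-fold lower as counted, but summed with their copies, as given below, Rps27 was at −0.15, which ends its call, and Rpl10 at −0.83. The next were the X-linked Rps4x at 2921 and 1975 CPM (−0.56), Rpl35a at 2741 and 1953 CPM (−0.49) and Rpl30 at 2339 and 1686 CPM (−0.47).

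The 8 highest ratios included 4 genes outside the canonical set. Rps27rt, at chr9:114982366-114982739, an intronless copy of Rps27, was at 435 CPM in wild type and 989 in the knockout (1.18, 1.14 to 1.22). Rpl7l1, an RPL7-like protein, was at 50.3 and 58.0 CPM (0.21, 0.07 to 0.34), and Rps19bp1 at 32.5 and 37.3 CPM (0.20, 0.03 to 0.37). Rps27l, a paralog of Rps27 that p53 induces, was at 234 and 255 CPM (0.12, 0.06 to 0.18), but at −0.01 in cells thinned to 5000 UMIs. Rps27rt was the one of these at least 25% higher, a call that is lost when it is summed with Rps27 (−0.15). Rpl31, Rpl23a at 1161 and 1138 CPM (−0.03) and Rplp1 were also among the 8.

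The other paralogs differed in level and in ratio. Rpl22l1, the alternative form of Rpl22, was at 526 and 428 CPM (−0.30), beside 1199 and 1021 CPM for Rpl22 (−0.23). It made up 30.5% (29.9 to 31.1) of the UMIs of that pair in wild type and 29.5% (29.0 to 30.1) in the knockout, so the balance of the 2 forms was nearly level. Rps27l made up 9.48% (9.17 to 9.79) of Rps27 plus Rps27l in wild type and 15.2% (14.8 to 15.6) in the knockout, a gap that holds the lower Rps27 count in it. This share leaves out Rps27rt. Rps27 and Rps27rt together were at 2672 and 2405 CPM, beside 234 and 255 CPM for Rps27l, so the gap is smaller with Rps27rt counted. Rpl36al, a close paralog of Rpl36a, was at 434 and 423 CPM (−0.04, −0.08 to 0.01), nearly level between the libraries. Rpl39l, a paralog enriched in testis, gave 118 and 153 UMIs, or 8.18 and 7.98 CPM. Rpl3l, which striated muscle fibres express in place of Rpl3, gave 3 UMIs in wild type and 2 in the knockout. Rpl10l, a testis paralog of Rpl10, gave 0 UMIs in either library, where a count of 0 allows at most 0.208 CPM in wild type and 0.156 CPM in the knockout.

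Several of the outlying members have near-identical copies, and their values were read together with those copies. The last 300 bases of each member's transcripts were matched to the transcripts of all genes in the matrices (GENCODE M21, GRCm38), and 19 members had a copy of at least 95% identity over at least 200 bases. In 7 of them (Rpl10, Rpl21, Rpl35, Rpl36a, Rplp2, Rps12 and Rps27) a copy reached 20 CPM. The coding start of 3 such members is printed to show how alike the transcripts are. Rps27 and Rps27rt aligned over 341 bases with 0 mismatches, so the first 120 coding bases below belong to both genes, and Rpl10 and Rpl10-ps3 (chr9:50344201-50344968) aligned over 740 bases with 0 mismatches. Rpl36a and Rpl36a-ps1 (chr14:98993870-98994318) differed at 7 of 438 aligned bases, which are in capitals in their first 150 coding bases. Counted from the A of the start codon, with the base of Rpl36a first, these are C20T, C21T, T93C, G116A, T120C, C123T and G139A. Each sequence is GENCODE transcript sequence, 5′ to 3′.
Rps27 and Rps27rt: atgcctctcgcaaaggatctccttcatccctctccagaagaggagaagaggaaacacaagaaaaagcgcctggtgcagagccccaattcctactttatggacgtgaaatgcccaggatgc
Rpl10 and Rpl10-ps3: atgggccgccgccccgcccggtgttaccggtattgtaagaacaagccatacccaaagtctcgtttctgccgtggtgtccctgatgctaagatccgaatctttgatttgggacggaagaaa
Rpl36a: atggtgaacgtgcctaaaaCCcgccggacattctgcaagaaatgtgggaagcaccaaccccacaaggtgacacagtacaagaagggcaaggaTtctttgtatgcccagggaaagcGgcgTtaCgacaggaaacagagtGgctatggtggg
Rpl36a-ps1: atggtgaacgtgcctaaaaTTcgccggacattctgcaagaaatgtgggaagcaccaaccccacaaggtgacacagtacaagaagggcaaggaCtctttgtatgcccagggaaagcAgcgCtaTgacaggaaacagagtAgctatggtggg
A 3′ read of Rps27 or Rpl10 within these stretches holds no base that tells parent from copy, and Rpl36a and its copy were identical over their last 281 aligned bases. The sources used here do not give how reads that match several genes were counted, so the level of each such gene alone is uncertain. If such reads were left out of both genes, a sum of parent and copy falls short too.

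In 4 of these pairs the copy was at least 25% higher in the knockout while the parent was lower. Rpl10-ps3 was at 561 CPM in wild type and 856 in the knockout, Rps27rt at 435 and 989, and Rpl36a-ps1 at 29.0 and 82.3. The fourth is Wdr89, at chr12:75630596-75669537, a gene of another protein family whose transcript matched Rplp2 over 447 bases with 3 mismatches, at 182 and 646 CPM. The copy's part of the sum went from 22.0% to 59.6% for Rpl10, from 16.3% to 41.1% for Rps27, from 10.8% to 34.8% for Rplp2 and from 2.22% to 7.80% for Rpl36a. Read as sums of parent and copies, Rps27 was at 2672 and 2405 CPM, a log2 ratio of −0.15 (−0.17 to −0.13) in place of −0.66. Rplp2 was at 1686 and 1860 CPM, and its ratio turned from −0.31 to 0.14 (0.12 to 0.17). Rpl36a was at 1307 and 1056 CPM (−0.31 in place of −0.39). Rpl10 was at 2556 and 1436 CPM (−0.83, −0.85 to −0.81), smaller than alone but still well outside the band of the other members.

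Other members stayed where they were. Rpl35 summed with its copies, chiefly Gm2000 at chr1:156366040-156366484, was at 865 and 431 CPM (−1.00), with the copies at 22.1% of the sum in wild type and 22.7% in the knockout. Gm2000 alone was at 189 and 96.9 CPM, lower in the knockout like its parent. Rpl13a with its copies was at 306 and 167 CPM (−0.87). Rpl21 was at −0.43 with its copy BC004004 (38.4 and 41.7 CPM) and −0.44 without. Rps12 was at −0.11 with Rps12-ps3 (its own log2 ratio 0.04) and −0.12 without. These 2 copies were also slightly higher in the knockout. With all matched copies added, the median over members was −0.27, 27 members were at least 20% lower (all genes 9.34%) and 0 were at least 25% higher (all genes 15.2%). What moves the counts between parent and copy was not tested, and sequence differences between the strains cannot be told apart from genotype here.

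**Figure D3:**
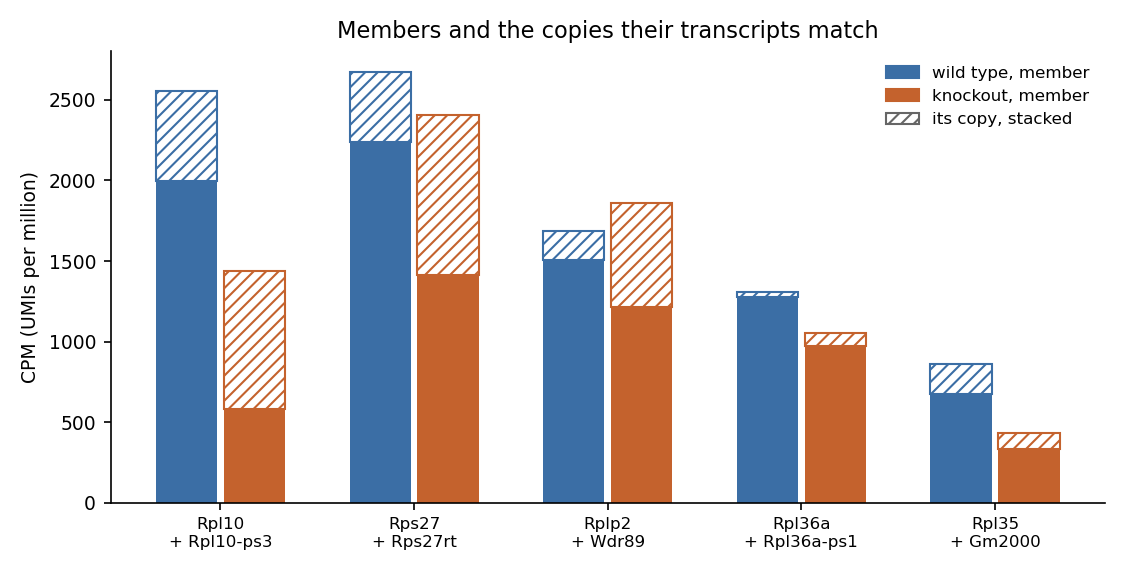
CPM (y axis) of 5 members (filled) with their main matched copy stacked on top (hatched), in wild type (blue) and knockout (orange). For Rpl10, Rps27, Rplp2 and Rpl36a the hatched part is larger in the knockout while the filled part is smaller, and for Rpl35 both parts are smaller.

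Large and small subunit genes varied together from cell to cell. Across cells thinned to 5000 UMIs, the share of the canonical large subunit members and that of the small subunit members had a Pearson correlation of 0.960 over 1234 wild type cells and 0.961 over 1263 knockout cells. This is a description, since the points of each correlation share 1 library and 1 total of UMIs. The ratio of small to large subunit UMIs was 0.794 in wild type and 0.789 in the knockout, and 90% of cells lay between 0.689 and 0.908 and between 0.657 and 0.920. The subunit balance was thus nearly level between libraries while the summed share was not.

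Cells of each library were then put in 3 groups of equal size by their large subunit share, and the small subunit genes, which the split did not use, were read in each. In wild type the small subunit share was 4.84% in the low, 6.81% in the middle and 9.10% in the high group, and in the knockout 3.58%, 5.52% and 7.40%. Each of the 31 small subunit members was higher in the high group of both libraries. Because the large and small subunit shares were correlated over these same cells, the rise of the summed small subunit share was given in advance. It is no independent check. The log2 ratios of high over low group had a median of 0.93 in wild type, where Rps3a1 was highest at 1.07, and a median of 1.09 in the knockout, where Rps3 was highest at 1.30. Rps24 had ratios of 1.03 and 1.09 and Rps12 of 0.88 and 0.93.

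Not every translation gene followed the split. The other TOP mRNAs went from 1.85% in the low to 2.91% in the high group of wild type, and from 1.40% to 2.40% in the knockout. Ribosome biogenesis genes stayed at 0.177% and 0.170% in wild type and at 0.190% in the low and high groups of the knockout. The list of 16 matrix genes was lower in the high group, going from 4.60% to 3.63% in wild type and from 6.02% to 4.98% in the knockout. Mitochondrial transcripts were at 3.41% and 3.63% in wild type and 3.23% and 3.54% in the knockout. The nuclear RNAs Malat1 and Neat1 went from 3.35% to 2.96% and from 4.06% to 3.07%. Median depth before thinning was 9314 and 10448 UMIs in the low and high groups of wild type, and 12189 and 13836 in the knockout. Each thinned cell held 5000 UMIs, so a larger member share leaves a smaller share for all other genes together. The part of this fixed total in the lower matrix and nuclear RNA shares was not tested. The part of depth and nuclear RNA in the spread between cells was not tested either.

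The libraries held different mixes of FAP states, so the members were also read within sets of thinned cells that held at least 3 UMIs of a marker pair, a cell being allowed in several sets. Pi16 and Dpp4 mark FAPs of the adventitial, progenitor type, and their 484 wild type and 434 knockout cells had median shares of 16.2% and 12.8%. Hsd11b1 and Mme mark another resident state, which had the lowest wild type share of the 8 sets compared, at 13.1% in 229 cells, and 11.4% in 211 knockout cells. The compared sets with many more cells in the knockout, Cthrc1 and Postn (79 and 462 cells) and Cpxm1 and C1qtnf3 (85 and 428 cells), had medians of 15.7% and 12.6% and of 15.9% and 12.6%. The Inmt and Stmn4 set, with fewer cells in the knockout (364 and 57), had 16.5% and 14.3%.

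The other 3 sets had the same direction. Comp and Clu gave 15.9% in 119 wild type cells and 13.8% in 67 knockout cells, Gdf10 and Fmo2 16.3% in 108 and 13.1% in 64, and Fst and Penk 16.5% in 310 and 13.2% in 193. Log2 ratios of the mean shares lay between −0.36 and −0.19 in the 8 sets, and −0.32 over all thinned cells. The 178 wild type and 157 knockout cells in no set had medians of 14.4% and 12.0%. In the knockout, 106 cells fell in the set of the interferon-induced chemokines Cxcl9 and Cxcl10, with a median of 12.8%, but wild type had too few (7) to compare.

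**Figure D4:**
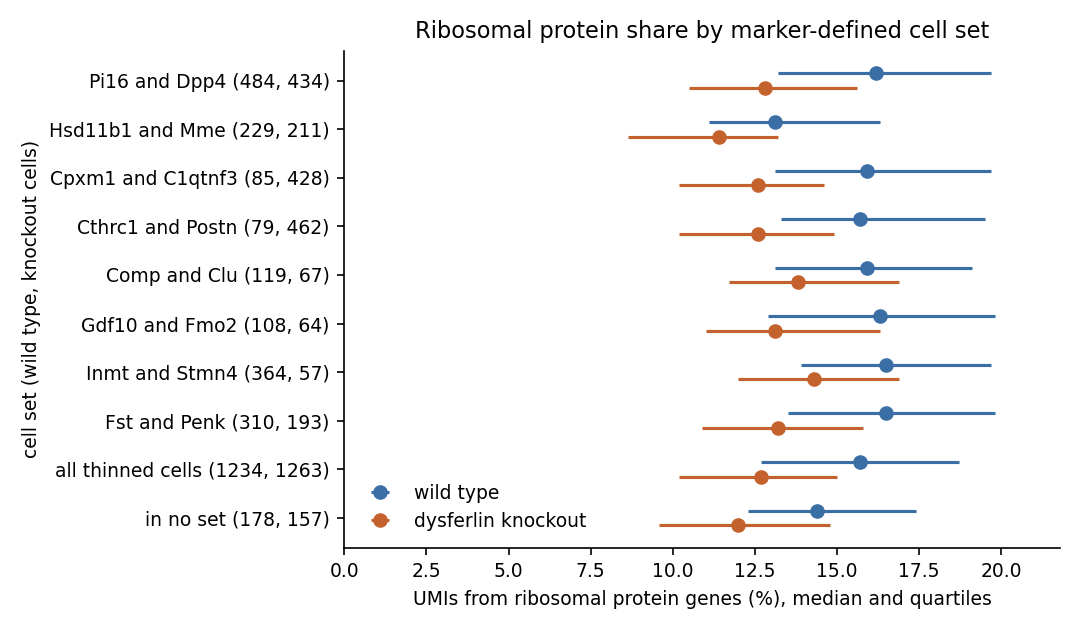
Median (point) and quartiles (line) of the percent of UMIs from ribosomal protein genes (x axis) in cells thinned to 5000 UMIs, for 8 sets defined by a pair of marker genes, all thinned cells and cells in no set (y axis, with wild type and knockout cell numbers). The knockout median is the lower one in every row, by the least for Hsd11b1 and Mme.

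Single members repeated this across sets. Of the 83 members, 73 were lower in the knockout in all 8 sets and 1, Rps27rt, was higher in all 8, with log2 ratios of 0.99 to 1.31. Rpl10 ran from −1.98 to −1.44, Rpl35 from −1.08 to −0.78, Rpl13a from −1.00 to −0.47 and Rps27 from −0.74 to −0.54. Rps4x ran from −0.75 to −0.38. Even Rplp1, nearly level over all cells, was lower in each set, from −0.17 to −0.05. The remaining 9 members, among them Rpl31, Rpl23a and Rps27l, differed in sign between sets. Sets share cells and come from the same 2 libraries, so they are no replicates.

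Genes of the same pathway outside the family are given for comparison. Fau, a canonical small subunit gene left out by the naming rule, was lower too, at 2040 and 1688 CPM (−0.27). Of 23 other TOP mRNAs past the minimum, 18 were below 0, with a median of −0.19. Of these 23, 8 (34.8%, all genes 9.37%) were at least 20% lower and 0 were higher by the same fold (all genes 15.2%). Their summed share was 2.40% in wild type and 1.97% in the knockout. The elongation factor Eef1a1, at 4720 and 3361 CPM (−0.49, −0.51 to −0.47), and the initiation factor subunit Eif3h, at 297 and 213 CPM (−0.48, −0.55 to −0.42), had the lowest ratios. The poly(A)-binding protein gene Pabpc1, at 290 and 335 CPM (0.21), and the nucleolar chaperone gene Npm1, at 427 and 527 CPM (0.30, 0.26 to 0.35), had the highest.

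Genes that build ribosomes did not share the direction of the ribosomal protein genes. Of 44 ribosome biogenesis genes, 28 passed the minimum, with a median of 0.20. Of these, 6 (21.4%, all genes 15.2%) were at least 25% higher and 0 were lower by the same fold (all genes 9.37%). Ddx21, a nucleolar RNA helicase, was at 63.0 and 97.2 CPM (0.63, 0.51 to 0.74) and Tcof1, which supports rRNA transcription, at 27.4 and 39.9 CPM (0.54). The lowest were Nop53 at 113 and 93.5 CPM (−0.27) and Nop10 at 111 and 106 CPM (−0.07). The 24 initiation factor genes had a median of 0.05. Of them, 3 (12.5%, all genes 15.2%) were at least 25% higher and 1 (4.17%, all genes 9.37%) was lower by the same fold. Both shares were below those of all genes. The scaffold gene Eif4g1 was at 118 and 161 CPM (0.45) and Eif1a at 71.8 and 93.1 CPM (0.37), against Eif1 at 1390 and 973 CPM (−0.52) and Eif3k at 236 and 211 CPM (−0.16).

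Of 20 mTORC1 and growth genes, 11 passed, with a median of 0.00. At least 25% higher were 2 (18.2%, all genes 15.2%), and at least 20% lower were 3 (27.3%, all genes 9.37%). Ddit4, a stress-induced mTORC1 inhibitor, was at 159 and 42.6 CPM (−1.90, −2.01 to −1.78), and Myc, an activator of ribosome production, at 45.2 and 26.9 CPM (−0.75). Sesn3, also an mTORC1 inhibitor, was at 34.7 and 65.2 CPM (0.91) and Deptor at 49.4 and 68.1 CPM (0.46). Inhibitors of mTORC1 were thus among both the lowest and the highest of the list.

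The mitochondrial ribosome, which is built from other genes, was close to the median of all genes. Of 78 Mrpl and Mrps genes, 62 passed, with a median of 0.04. At least 25% higher were 3 (4.84%, all genes 15.2%), and at least 20% lower was 1 (1.61%, all genes 9.37%). The extremes were Mrpl23 at 129 and 96.9 CPM (−0.41) and Mrpl9 at 27.6 and 23.6 CPM (−0.22) on the low side, and Mrps6 at 74.0 and 99.4 CPM (0.43) and Mrps11 at 18.7 and 24.7 CPM (0.40) on the high side. Because CPM is a share of a fixed total, a lower member share goes with higher shares elsewhere. The 16 matrix genes took 4.33% of UMIs in wild type and 5.76% in the knockout. Of them, 13 were at least 25% higher (81.2%, all genes 15.2%). With the matrix genes left out of the total, the log2 ratio of the summed member share was −0.26. Immediate early genes, which dissociation of tissue can induce, took 1.21% and 0.721%, and their part in these differences was not tested.

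**Figure D5:**
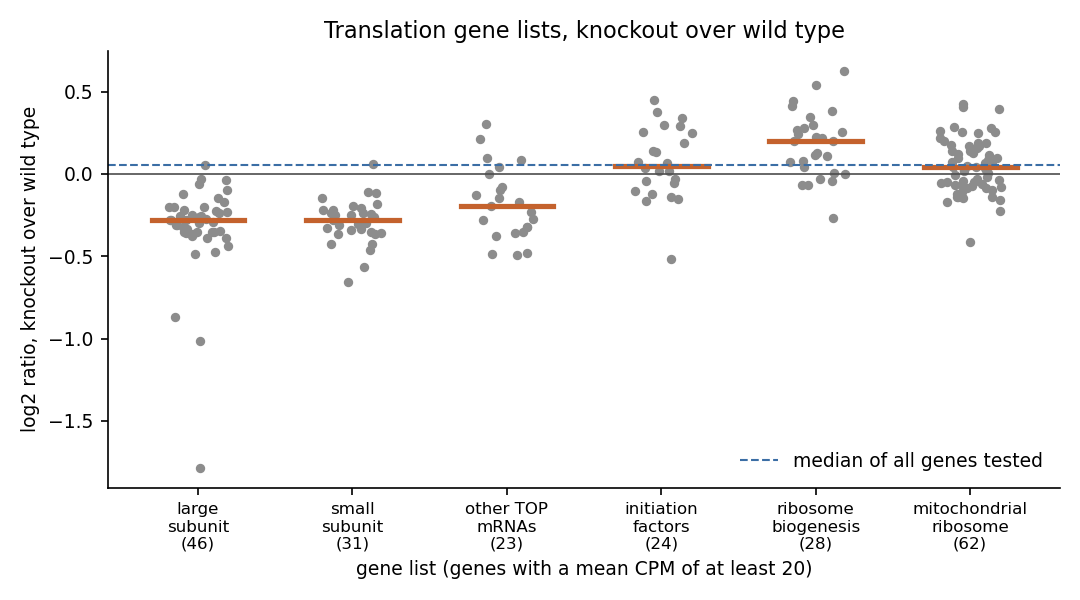
Log2 ratio of knockout over wild type CPM (y axis) for single genes (grey points) of 6 lists (x axis, with the number of genes past a mean of 20 CPM), with each list's median as an orange bar and the median of all genes tested, 0.05, as a dashed line. The canonical large and small subunit genes both centre on −0.28 and other TOP mRNAs on −0.19, ribosome biogenesis genes centre on 0.20, and initiation factors and mitochondrial ribosome genes lie near the dashed line.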

How the data were processed

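The authors deposited raw UMI counts per gene and barcode in 1 matrix per group, from 10x Genomics 3′ libraries (version 3 kit) of PDGFRα-positive live cells, sorted with a pulse width gate against doublets per the labels' protocols. The submitters' processing notes name Cell Ranger 3.0.0, the mm10 build and Seurat. Software version 3.0.2 is written in the matrices, per the file headers. How cells were called, and the counting of reads that match several genes, are not given in these sources. No doublet caller was run. Leaving out the 2% of cells with most UMIs was an alternative.

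For each library, the UMIs of a gene were added up over kept cells and scaled to 1000000 UMIs (CPM). Log2 ratios are knockout over wild type with exact conditional binomial 95% intervals (scipy 1.17.1, numpy 2.4.6, pandas 2.3.3, Python 3.11.15). The code was tested on simulated data. Copies were found with BLAST+ 2.17.0, and TMM factors came from edgeR 4.0.16. With 1 library per group there was no test: genes are named past a fixed fold. Members named singly are the 10 highest, the 8 lowest and 8 highest ratios, all paralogs, members with an expressed copy, and 2 genes at each end of each pathway list. Others are named for their known role, and were chosen after their values were seen. The members and gene lists were chosen with earlier results of these data known. A few genes that these rules would name are not reported here.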

Additional observations from a re-analysis of the deposited data

How the results depend on the processing

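The lower level of ribosomal protein genes in the knockout kept its direction under all alternatives run, some of which were chosen after seeing the data (matched copies, matrix UMIs left out, canonical members only, cells of 5000 to 20000 UMIs, shared barcodes). The log2 ratio of the summed share was −0.28, −0.30 with no Pdgfra requirement, −0.29 with no filter, with a stricter filter, with mitochondrial UMIs left out of the total and with canonical members only, −0.30 without the 2% deepest cells, −0.33 with TMM factors, −0.32 after thinning to 5000 UMIs, −0.27 with matched copies added, −0.26 with matrix UMIs left out and −0.34 in cells of 5000 to 20000 UMIs. The median over members was −0.28, −0.29 with no Pdgfra requirement or without the deepest cells, −0.33 with member UMIs left out of the total, −0.32 with TMM factors, −0.30 after thinning and −0.27 with matched copies added. It was also −0.27 without Rps27rt and the 7 members whose copy reached 20 CPM, −0.26 with matrix UMIs left out and −0.34 in cells of 5000 to 20000 UMIs. Members at least 20% lower numbered 29 (all genes 9.37%), and 24 of a smaller set without Rps27rt and the 7 members whose copy reached 20 CPM (all genes 9.37%). They numbered 25 with matrix UMIs left out (all genes 8.26%), 42 with member UMIs left out (all genes 11.7%) and 44 in cells of 5000 to 20000 UMIs (all genes 9.53%). The other settings lay between 27 and 40. The 1 member at least 25% higher, Rps27rt, dropped to 0 with matched copies added, without Rps27rt and the 7 members whose copy reached 20 CPM, and with canonical members only, by construction. The median of all genes lay between 0.01 and 0.08 across settings. Rplp2 turned from −0.31 to 0.14 with its copy added. Rpl31 turned from 0.06 to −0.01 after thinning and to −0.02 in cells of 5000 to 20000 UMIs, and Rps27l from 0.12 to −0.01 after thinning. No paired analysis was possible because each group is 1 pooled matrix. Genes near the minimum of 20 CPM are limited by depth: Rpl39l, below it, went from −0.04 to −0.52 in cells of 5000 to 20000 UMIs.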
